A study of Homo sapiens with 8 samples.

Results

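The genes examined here encode the proteins of the mitochondrial ribosome. They were taken by symbol, as the rows of the raw count table named MRPL or MRPS followed by a number, with a minimum of 10 counts in 4 or more libraries. The rule found 78 of the 15767 genes in the table, 49 of the large subunit (MRPL) and 29 of the small subunit (MRPS), and all 78 passed the count minimum, as did 12928 genes in all. All 78 are annotated as protein-coding, and no pseudogene, readthrough or antisense gene was taken in. The cells were wild-type HuH7, a human hepatoma line used as a hepatocyte model. The cells of all 8 samples were held for 6 h without glucose at 1% oxygen and then for 6 h at normal oxygen, an in vitro model of hepatic ischemia-reperfusion (I/R). During reoxygenation 4 of them received DMSO (I/R+DMSO) and 4 received 20 µM of the ginseng saponin ginsenoside Rk2 dissolved in DMSO (I/R+Rk2). No culture without I/R was compared here, so each value describes Rk2 against DMSO after I/R in 1 tumour line.

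Mitochondria translate their own small set of messenger RNAs, which encode core subunits of the respiratory chain and of ATP synthase. The ribosome that does this takes its RNAs from mitochondrial DNA and its proteins from nuclear genes. These proteins are made in the cytosol and imported. Many descend from bacterial ribosomal proteins, and others are found only in mitochondria. Hepatocytes are rich in mitochondria, and oxidative phosphorylation in them depends on this ribosome. Transcript levels of its protein genes do not measure how many ribosomes are assembled.

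Total counts were between 16374082 and 30310479 per library, and a mitoribosomal gene had between 119 and 8801 counts in a library. All 9 hepatocyte markers checked, among them ALB and HNF4A, passed the count minimum, with summed levels of 11461 to 12496 CPM (counts scaled to library size) in I/R+DMSO and 12477 to 12935 CPM under Rk2. Of the leukocyte markers 2 of 3 were in the count table (43.8 to 55.9 and 41.0 to 56.3 CPM, PTPRC not among them), of the endothelial markers 1 of 3 (8.29 to 9.88 and 9.10 to 11.0 CPM), and of the fibroblast and stellate markers all 4 (2.50 to 4.24 and 2.63 to 3.60 CPM). The library I/R+DMSO 1 stood apart. It held the highest of the 8 values for 59 of the 78 genes, and its log2 deviation from the 8-library mean fell with gene length across all tested genes (Spearman rho −0.50 over 12912 genes, against −0.11 and −0.19 in I/R+DMSO 2 and 3 and 0.21 to 0.39 in the I/R+Rk2 libraries). Results are therefore also given without this library and after a correction for gene length within each library.

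The mitoribosomal genes were lower after Rk2 than after DMSO alone. Of the 78 genes, 23 (29.5%) fell at an adjusted p under 0.05 in edgeR's quasi-likelihood test, where 7.23% of all tested genes fell. None rose, where 11.0% of all tested genes rose. No member had a log2 fold change above 0 with an unadjusted p under 0.05. DESeq2 called 0 members higher and 34 lower, all 23 among them, where it called 10.0% of all tested genes lower. The decreases were small: the called genes were 10.6% to 27.6% lower, and 0 members combined an adjusted p under 0.05 with a fold above 1.5, as 0.580% of all tested genes did in the downward direction. Fitted log2 fold changes lay below 0 for 73 of the 78 genes, against 50.3% of all tested genes, with a median of −0.20 and a range of −0.56 to 0.14. In 30 of the 78 genes (38.5%) every I/R+Rk2 library was below every I/R+DMSO library, where 12.9% of all tested genes showed this. In bulk RNA, a lower level in every cell and a lower level in some of the cells cannot be told apart. The labels do not say whether the 4 replicates were separate cultures, so the p-values measure the spread between these samples, which may be technical.

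The number of calls depended on single libraries. It was 19 without I/R+DMSO 1 (6.90% of all tested genes called lower) and 20 without I/R+DMSO 4 (6.77%). It was 10 without I/R+DMSO 2 (4.61%), 12 without I/R+DMSO 3 (4.45%) and 10 without I/R+Rk2 1 (4.87%). It was 9 without I/R+Rk2 2 (4.01%), 7 without I/R+Rk2 3 (4.15%) and 6 without I/R+Rk2 4 (3.35%). The share of all tested genes, in brackets, thus also dropped in each of these fits, from 7.23% with all 8 libraries. MRPL16, MRPS18B, MRPL12 and MRPL20 stayed called in all 8 such fits. The scaling mattered too: with library size alone 14 members were called lower, where 5.29% of all tested genes were, and limma on log2(FPKM + 1) called 4, where it called 2.62%.

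As a share of all counts, the 78 genes took 0.597%, 0.516%, 0.509% and 0.4995% in I/R+DMSO 1 to 4. They took 0.482%, 0.481%, 0.460% and 0.452% in I/R+Rk2 1 to 4. The groups did not overlap, and I/R+DMSO 1 lay further from the other I/R+DMSO libraries than these did from each other. For the small subunit alone the shares did overlap, with 0.1837% in I/R+Rk2 2 and 0.1836% in I/R+DMSO 4. Averaged over the 78 genes, the log2 deviation from the 8-library mean was 0.27, 0.08, 0.06 and 0.00 in I/R+DMSO and −0.06, −0.05, −0.13 and −0.16 in I/R+Rk2. Both subunits followed this order closely: the large-subunit mean differed from the small-subunit mean by −0.03 to 0.04 within each library.

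**Figure D1:**
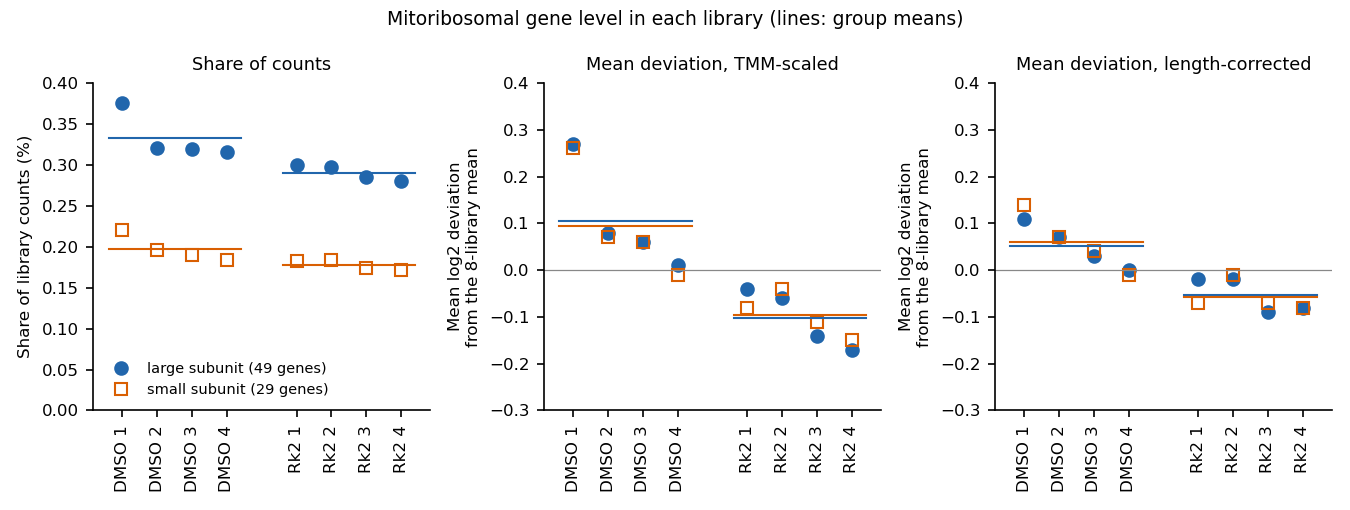
Share of library counts (%, left) and mean log2 deviation from the 8-library mean before (middle) and after (right) the gene length correction, for large-subunit (circles) and small-subunit genes (squares) in each library, with lines at group means. For the large-subunit shares all I/R+Rk2 libraries lie below all I/R+DMSO libraries (0.2801% to 0.2999% against 0.3159% to 0.3758%). For the small-subunit shares I/R+Rk2 2 (0.1837%) lies just above I/R+DMSO 4 (0.1836%), and after the correction both are at −0.01. I/R+DMSO 1 is the highest library in each panel.

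Among large-subunit genes 16 of 49 (32.7%) fell and 0 rose, with a median log2 fold change of −0.21, which is 13.7% lower. Values of 46 of the 49 were below 0. MRPL16 (chr11:59806135-59810872, minus strand, GRCh38), counterpart of a bacterial large-subunit protein, had the smallest p. Its level was 104, 91.7, 99.3 and 96.2 CPM in the libraries I/R+DMSO 1 to 4 (DMSO for short in the following values) and 81.2, 77.3, 75.1 and 72.2 CPM in I/R+Rk2 1 to 4 (Rk2). The groups did not overlap, and the log2 fold change was −0.35 (SE 0.0545, adjusted p = 0.00480, edgeR). MRPL12 (chr17:81703357-81707526, plus strand) encodes the stalk protein through which translation factors engage the ribosome. It had 147, 125, 124 and 124 CPM under DMSO and 106, 106, 98.7 and 96.5 CPM under Rk2. The other I/R+DMSO libraries were nearly equal and I/R+DMSO 1 was above them, and the log2 fold change was −0.35 (SE 0.0684, adjusted p = 0.0119, edgeR). In the annotation an exon of another gene, AC139530.2, overlaps MRPL12 on the same strand.

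MRPL20 (chr1:1401908-1407313, minus strand), also with a bacterial counterpart, had 82.9, 73.2, 70.4 and 67.9 CPM under DMSO and 60.4, 59.7, 56.6 and 55.1 CPM under Rk2. Every treated library was lower, at a log2 fold change of −0.34 (SE 0.0694, adjusted p = 0.0132, edgeR). On the log2(FPKM + 1) scale MRPL20 stood at −0.19 and was not called (adjusted p = 0.600, limma). RN7SL657P overlaps it on the same strand and AL391244.1 on the opposite strand. MRPL44 (chr2:223957404-223967714, plus strand), a mitochondrion-specific protein with a fold related to RNase III, had a small and even decrease. It had 52.1, 53.3, 54.1 and 51.0 CPM under DMSO and 46.3, 47.7, 44.7 and 44.5 CPM under Rk2, and here I/R+DMSO 1 was not the highest library. The log2 fold change was −0.20 (SE 0.0448, adjusted p = 0.0199, edgeR). MRPL58, also known as ICT1, is a peptidyl-tRNA hydrolase that frees stalled ribosomes and is itself a part of the large subunit. It had 38.4, 35.1, 31.3 and 34.0 CPM under DMSO and 30.2, 28.1, 26.5 and 26.4 CPM under Rk2, and fell by 0.32 on the log2 scale (SE 0.0771, adjusted p = 0.0258, edgeR). Its groups did not overlap, with I/R+DMSO 3 and I/R+Rk2 1 about 1 CPM apart.

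MRPL3, MRPL15 and MRPL24, counterparts of bacterial large-subunit proteins, fell by 0.16, 0.34 and 0.33 on the log2 scale, with adjusted p-values of 0.0208, 0.0217 and 0.0282 in edgeR. Each had groups that did not overlap. The other 8 called large-subunit genes were MRPL38, MRPL52, MRPL28, MRPL40, MRPL57, MRPL33, MRPL22 and MRPL41. Their log2 fold changes were between −0.19 (MRPL57) and −0.40 (MRPL41), with adjusted p-values of 0.0311 to 0.0474, and in each the groups did not overlap. MRPL11, part of the base of the stalk, was the most abundant member at a mean of 232 FPKM (fragments per kilobase, scaled to library size). It had 467, 298, 309 and 349 CPM under DMSO against 278, 270, 249 and 247 CPM under Rk2. Its groups did not overlap either, but I/R+DMSO 1 was far above the others, and the log2 fold change of −0.45 (SE 0.139) had an adjusted p of 0.0601 in edgeR.

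**Figure D2:**
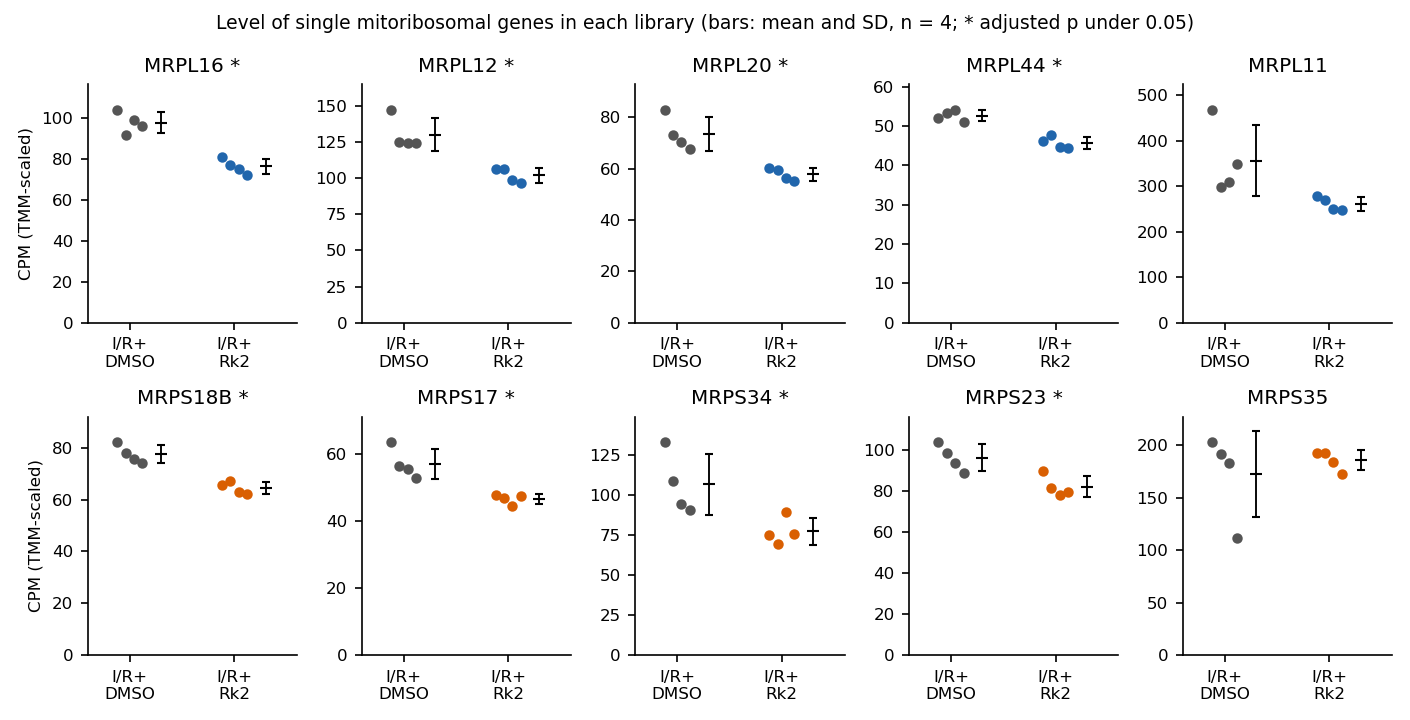
Level of 10 mitoribosomal genes (TMM-scaled CPM, axes from 0) in the 4 I/R+DMSO and 4 I/R+Rk2 libraries as points, with mean and SD beside them. MRPL16, MRPL12, MRPL20, MRPL44, MRPS18B, MRPS17 and MRPS34 show groups that do not overlap, MRPS23 groups that do, and in MRPS35 a low I/R+DMSO library (112 CPM) widens the spread.

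Among small-subunit genes 7 of 29 (24.1%) fell and 0 rose, with a median log2 fold change of −0.19, which is 12.4% lower. Values of 27 of the 29 were below 0. MRPS18B (chr6:30617709-30626395, plus strand) is one of the paralogs of a bacterial small-subunit protein. It had 82.1, 77.8, 75.7 and 74.1 CPM under DMSO and 65.8, 67.1, 62.9 and 62.1 CPM under Rk2. All treated libraries were below all controls, at a log2 fold change of −0.26 (SE 0.0489, adjusted p = 0.00960, edgeR). MRPS17 (chr7:55951819-55956501, plus strand), with a bacterial counterpart, had 63.4, 56.3, 55.4 and 52.8 CPM under DMSO and 47.7, 46.9, 44.4 and 47.4 CPM under Rk2. The groups did not overlap and the log2 fold change was −0.29 (SE 0.0637, adjusted p = 0.0184, edgeR). Exons of NIPSNAP2 and AC092647.5 overlap MRPS17 on the same strand, so the split of reads among them is uncertain.

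MRPS34, a mitochondrion-specific protein of the small subunit, had the largest fitted decrease of the called genes. It had 133, 109, 94.4 and 90.4 CPM under DMSO and 75.1, 69.4, 89.2 and 75.6 CPM under Rk2. The highest treated library was just below the lowest control, and the log2 fold change was −0.47 (SE 0.132, adjusted p = 0.0451, edgeR). MRPS23, also mitochondrion-specific, was the exception among the 23 called genes in that its groups overlapped. It had 104, 98.9, 93.9 and 88.9 CPM under DMSO and 89.8, 81.7, 78.0 and 79.6 CPM under Rk2, with I/R+Rk2 1 above I/R+DMSO 4. Its log2 fold change was −0.23 (SE 0.0647, adjusted p = 0.0445, edgeR). MRPS26, MRPS7 and MRPS12, the last at the decoding centre, fell by 0.31, 0.19 and 0.30 on the log2 scale, with adjusted p-values of 0.0290, 0.0423 and 0.0452 in edgeR. MRPS12 overlaps SARS2, and MRPS7 overlaps GGA3 and MIF4GD, on the opposite strand, and whether the counting used strand is not stated.

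The 55 members that did not pass the test lay on both sides of 0. In 8 of the 55 the groups did not overlap, with I/R+Rk2 lower: MRPL47, MRPS21, MRPL11, MRPS18A, MRPL2, MRPL14, MRPL45 and MRPL48. Among all tested genes, called or not, 12.9% showed this, as did 20.5% of the 1317 other genes of like length and abundance described below. A count of 8 in 55 is thus near the share over all tested genes. Only MRPL42, MRPL43, MRPL49, MRPS14 and MRPS35 had fitted log2 fold changes above 0, between 0.09 and 0.14, and their adjusted p-values were 0.495 to 0.781 (edgeR). For MRPS14 and MRPS35 the direction rested on I/R+DMSO 4, without which the values were −0.04 and −0.05. For MRPL43 it rested on I/R+DMSO 1, at 18.1 CPM far below the other controls, without which the value was −0.09. MRPL42 and MRPL49 stood at −0.07 and −0.01 on the log2(FPKM + 1) scale, and MRPL42 at −0.10 after length and GC correction. MRPS14 had 25.0, 25.6, 21.6 and 12.8 CPM under DMSO and 13.2, 29.3, 25.8 and 25.7 CPM under Rk2, so each group held a library far below its others. A spread over 2-fold within a group was seen in 6 members (MRPL34, MRPL36, MRPS24, MRPS14, MRPL19 and MRPL55), none of them called. In 42 members the spread within each group was under 1.3-fold.

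**Figure D3:**
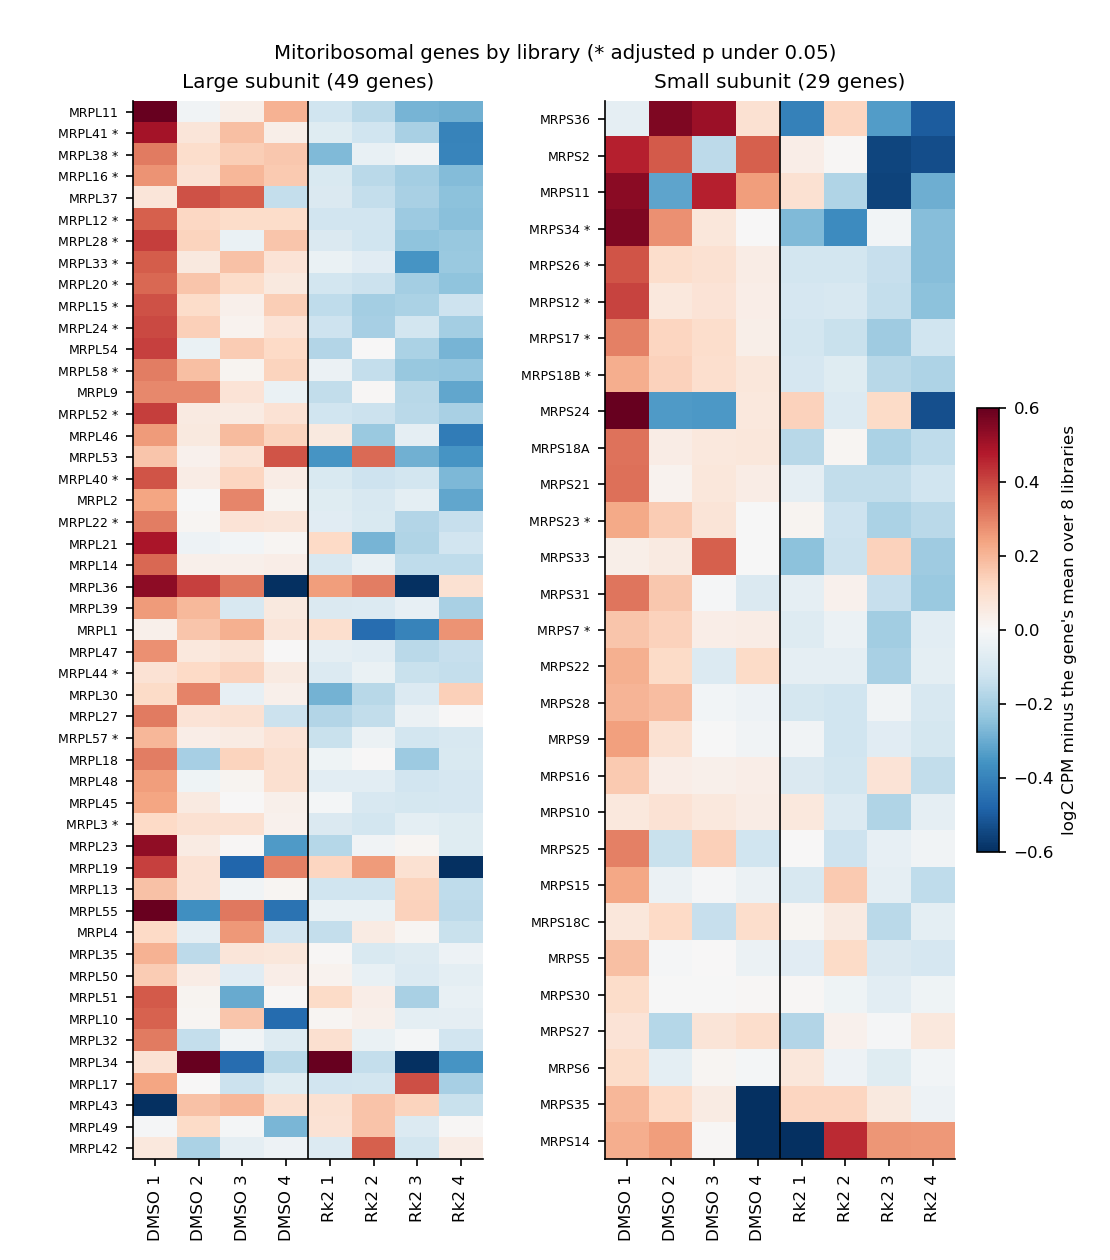
Log2 CPM of each of the 78 genes minus its mean over the 8 libraries (color, −0.6 to 0.6), large subunit left and small subunit right, rows ordered by fitted fold change, an asterisk at the 23 called genes. Most rows are red in I/R+DMSO and blue in I/R+Rk2, with the deepest red in I/R+DMSO 1, which was highest in 59 of the 78 rows.

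Per length, levels varied far more between members than between groups. Mean FPKM had a median of 38.6 over large-subunit and 32.3 over small-subunit genes. After MRPL11 at 232 FPKM came MRPL51 at 122 and MRPL21 at 118 FPKM, and the lowest large-subunit genes were MRPL53 at 12.9, MRPL19 at 14.5 and MRPL57 at 16.5 FPKM. In the small subunit MRPS34, MRPS35 and MRPS15 led at 93.1, 91.3 and 83.5 FPKM, and MRPS36, MRPS14 and MRPS31 were lowest at 9.04, 9.94 and 14.7 FPKM. Their SD within a group was as large as 62.8 FPKM in the I/R+DMSO libraries for MRPL11, so MRPL51 and MRPL21 (117 ± 32.8 and 127 ± 23.5 FPKM there, SD, n = 4) do not differ beyond their spread. Transcripts for proteins of the same particle thus ranged from 9.94 FPKM (MRPS14) to 232 FPKM (MRPL11).

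Of these, MRPL51, MRPL21, MRPS35 and MRPS15 were abundant and did not pass the test. MRPL51 stood at −0.06 on the log2 scale (adjusted p = 0.794, edgeR), which was above 0 on the FPKM scale (0.15) and after the length correction (0.10). MRPS15 stood at −0.08 (adjusted p = 0.563, edgeR), and at 0.04 after that correction.

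The symbol does not always give the subunit in which a protein sits. MRPS30 and MRPS18A are built into the large subunit, and MRPS36, also named KGD4, belongs to the 2-oxoglutarate dehydrogenase complex. MRPS30 had 131, 121, 121 and 122 CPM under DMSO and 122, 119, 116 and 119 CPM under Rk2, which is −0.06 on the log2 scale (adjusted p = 0.345, edgeR). MRPS18A stood at −0.25 (adjusted p = 0.0637, edgeR), with 46.3 CPM in I/R+DMSO 1 against 38.1 to 38.7 CPM in the other controls. MRPS36 had 10.6, 16.2, 15.7 and 11.7 CPM under DMSO and 8.31, 12, 8.70 and 7.78 CPM under Rk2. It had the lowest fitted value of all members, −0.56, but its groups overlapped and the adjusted p was 0.0684 (edgeR). With the genes sorted by structure, 16 of 51 large-subunit and 7 of 26 small-subunit genes fell, with medians of −0.21 and −0.19. Sorted by origin, 12 of 45 genes with a bacterial counterpart and 10 of 29 mitochondrion-specific genes fell, and both medians were −0.20. The differences between subunits and between origins were not tested.

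**Figure D4:**
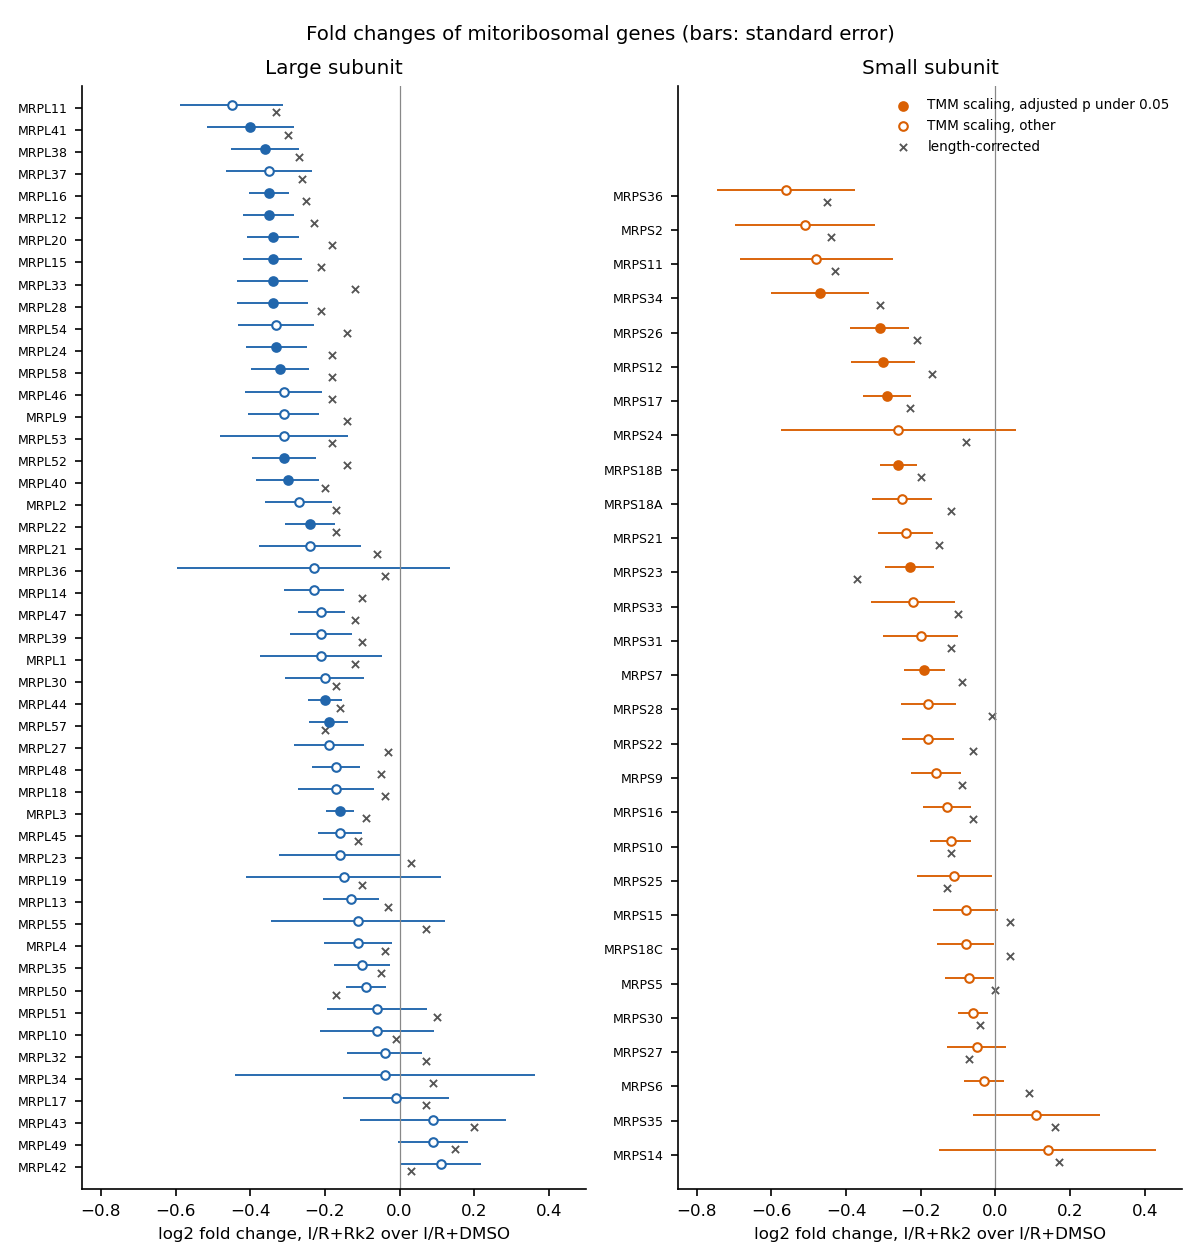
Log2 fold change of I/R+Rk2 over I/R+DMSO for every member, with SE bars under TMM scaling (filled where the adjusted p is under 0.05) and crosses after the gene length correction. The 23 filled points lie between −0.16 and −0.47, and most crosses lie nearer to 0, with 63 of 78 still below it.

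Mitoribosomal genes are short, and fold change followed gene length in these libraries. Lengths of the members, estimated from the ratio of deposited counts to FPKM, ran from 593 to 5323 bases. In some members the estimate exceeds the length of all annotated exons together, so it is approximate. Over all tested genes, log2 fold change and length had a Spearman rho of 0.39 (12912 genes, all read from the same 8 libraries), and over the members rho was 0.36 (78 genes). The 26 shortest members had a median log2 fold change of −0.28, the 26 of middle length (1170 to 1676 bases) −0.21 and the 26 longest −0.13, with 9, 8 and 6 called lower. The lower I/R+Rk2 levels and the length trend thus moved together, and I/R+DMSO 1 was the library with the strongest trend.

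After a correction for length within each library, rho was −0.06 over the members and −0.01 over all tested genes. The median log2 fold change of the members was then −0.12, against −0.02 over all tested genes, and it was −0.12, −0.12 and −0.11 in the shortest, middle and longest members. In that fit 16 of the 78 genes fell, all of them among the 23, 11 of the large and 5 of the small subunit, where 9.61% of all tested genes fell. None rose, where 7.91% of all tested genes did. Correcting for GC content as well left 14 lower, 11 of them among the 23, where 9.09% of all tested genes fell. Under the length correction alone, the log2 deviation averaged over the members was 0.12, 0.07, 0.03 and −0.01 in I/R+DMSO and −0.04, −0.02, −0.08 and −0.08 in I/R+Rk2. The groups still did not overlap but I/R+DMSO 4 and I/R+Rk2 2 were 0.01 apart. For the small subunit alone both of these libraries stood at −0.01. Without I/R+DMSO 1, a setting chosen after seeing the data, the corrected fit called 9 members lower, where 8.36% of all tested genes were called lower, with medians of −0.11 and −0.07 for the large and small subunit. A count of 9 in 78 is near that share.

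MRPL16 stood at −0.25 on the log2 scale after the length correction (adjusted p = 0.00424, edgeR), and MRPL12 at −0.23 (adjusted p = 0.00520). MRPS18B, MRPL20 and MRPS17 stood at −0.20, −0.18 and −0.23, with adjusted p-values of 0.00832, 0.0163 and 0.0168 in the same fit. MRPS23, the longest member by estimated length at 5323 bases, moved the other way, from −0.23 to −0.37 (adjusted p = 0.0215, edgeR). MRPL3, MRPL33, MRPL58, MRPL52, MRPL28, MRPS7 and MRPS34 were no longer called. MRPL16 and MRPL12 were the 2 genes called in every one of the 13 other settings and in all 8 fits that left out a library.

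**Figure D5:**
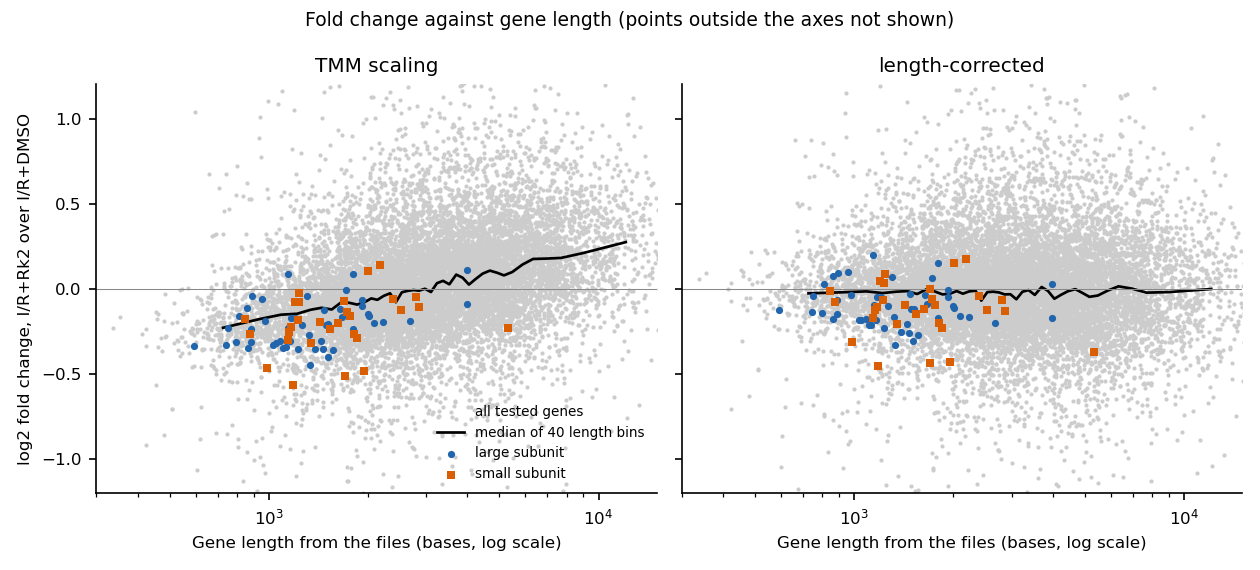
Log2 fold change against gene length (bases, log scale) for all tested genes (grey), with the median of 40 length bins (line) and the large-subunit (circles) and small-subunit genes (squares), under TMM scaling (left) and after the length correction (right). The line rises with length on the left (rho 0.39) and is flat on the right (rho −0.01), and the members lie mostly below it in both panels.

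Other genes of like length and abundance were compared over the range that holds the middle of the members, 872 to 2272 bases and 25.2 to 103 CPM. Of the 1317 other genes in that range, 10.8% fell and 3.49% rose, with a median log2 fold change of −0.10 and 73.0% of values below 0. Of the 50 members in the same range 18 (36.0%) fell and 0 rose, with a median of −0.21. Lengths were not matched within the range: the median was 1435 bases in the 50 members and 1698 bases in the 1317 genes. Groups that did not overlap, with I/R+Rk2 lower, were seen in 25 of these 50 members and in 20.5% of the 1317 genes. After the length correction 12 of the 50 members (24.0%) fell, where 6.53% of the 1317 genes fell, with medians of −0.12 and −0.02. With GC correction added 7 of the 50 (14.0%) fell, where 5.85% of the 1317 genes fell, with medians of −0.12 and −0.01.

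The cytosolic ribosome and the nuclear subunits of oxidative phosphorylation are other sets of short, abundant transcripts. Cytosolic ribosomal protein genes had a median log2 fold change of −0.20, but 5 of 77 (6.49%) fell, and after the length correction the median was −0.04 and 2 fell. Nuclear oxidative phosphorylation genes had a median of −0.19 with 6 of 76 (7.89%) called lower, and −0.04 with 3 called lower after the correction. The 78 mitoribosomal genes stood at −0.20 with 23 called and −0.12 with 16 called. Of all tested genes 7.23% fell before the correction and 9.61% after it. By other measures the sets lay closer together. Groups that did not overlap, with I/R+Rk2 lower, were seen in 32 of the 77 cytosolic ribosomal genes (41.6%), 30 of the 76 oxidative phosphorylation genes (39.5%) and 30 of the 78 mitoribosomal genes (38.5%). DESeq2 called 27, 20 and 34 of them lower, where it called 10.0% of all tested genes lower. These sets share the same 8 libraries and the differences between them were not tested.

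Promoter sequences were matched for 69 of the 78 members in a RefSeq table (GRCh38.p14) that holds 250 bases before to 50 after each gene's start, 300 bases in all. The letters CCGGAAG, the core bound by ETS factors such as GABPA, were found on either strand in 29 of 69 members (42.0%), against 19.2% of the other tested genes with a promoter and 10.7% of all 27305 promoters. The letters AAGATGG, a core of the YY1 motif, were found in 23 of 69 (33.3%), against 7.28% and 6.06%. TGCGCA, a core of the NRF1 motif, was found in 14 of 69 (20.3%), against 13.5% and 8.42%. CACGTG, the E-box, was in 6 (8.70%), against 10.3% of the other tested genes and 7.43% of all promoters. TTNCATCA, bound by C/EBP-ATF4 pairs, was in 1 (1.45%), against 1.72% and 3.67%. None of these motifs holds another as a part. The ETS letters were in 13 of 22 called and 16 of 47 other members, and the YY1 letters in 7 of 22 and 16 of 47. Matches are descriptions of these windows and were not tested as binding sites.

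The following stretches show these letters in capitals, 5′ to 3′ on the gene's strand, for the 5 called members with the smallest p among those with the ETS letters. In MRPL16 and MRPS26 they read on the opposite strand, as CTTCCGG, and MRPL20 holds them at 2 places. MRPL58 also holds them at 2 places, and the one nearer the start is shown.
MRPL16, chr11:59810765-59810794, minus strand: gtgaacacaaCTTCCGGccccactgagcgg
MRPL20, chr1:1407305-1407364, minus strand: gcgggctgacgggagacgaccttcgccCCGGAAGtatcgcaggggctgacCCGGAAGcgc
MRPL3, chr3:131502972-131503031, minus strand: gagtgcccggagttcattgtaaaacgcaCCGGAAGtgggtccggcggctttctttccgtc
MRPL58, chr17:75012610-75012669, plus strand: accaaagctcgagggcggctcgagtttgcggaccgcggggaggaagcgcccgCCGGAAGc
MRPS26, chr20:3045988-3046047, plus strand: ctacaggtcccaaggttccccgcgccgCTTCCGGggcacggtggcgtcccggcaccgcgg

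The 4 called members with the smallest p among those with the YY1 letters are shown in the same way. In MRPS18B, MRPL20 and MRPL38 the letters lie within 50 bases after the annotated start, and in MRPL52 the stretch shown holds the match that begins 98 bases before it. Of the 24 matches in members, 16 lay after the start.
MRPS18B, chr6:30617853-30617882, plus strand: ggcgtacgtcAAGATGGcggcgtctgtatt
MRPL20, chr1:1407259-1407288, minus strand: cgacccgggcAAGATGGcagcggcgctgcg
MRPL38, chr17:75904859-75904888, minus strand: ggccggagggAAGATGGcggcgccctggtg
MRPL52, chr14:22829762-22829821, plus strand: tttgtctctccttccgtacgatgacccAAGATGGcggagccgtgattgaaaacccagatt

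The genes GABPA, YY1 and NRF1 themselves did not pass the test. GABPA stood at 0.28 on the log2 scale (adjusted p = 0.0602, edgeR), YY1 at −0.16 (0.462) and NRF1 at −0.12 (0.263). After the length correction they stood at 0.13, −0.36 and −0.16 in that order, and none was called.

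Mitoribosomal proteins that carry other symbols were examined as 5 genes. GADD45GIP1, a large-subunit protein, fell by 0.39 on the log2 scale (SE 0.0948, adjusted p = 0.0251, edgeR). The 4 small-subunit genes did not pass the test: DAP3, a GTP-binding protein, stood at −0.11 (adjusted p = 0.0829), CHCHD1 at −0.14 (0.217), AURKAIP1 at −0.23 (0.232) and the pentatricopeptide protein PTCD3 at 0.02 (0.793). CHCHD1 stood at 0.01 and PTCD3 at −0.08 after the length correction.

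Of 26 genes whose products assemble the particle or modify its RNA, 7 (26.9%) fell and 0 rose, with a median log2 fold change of −0.20. Of all tested genes 7.23% fell. RCC1L, an assembly factor, had 92.3 CPM under DMSO and 73.8 CPM under Rk2 on average, −0.32 on the log2 scale (SE 0.0474, adjusted p = 0.00401, edgeR). C1QBP, a matrix protein that supports mitochondrial translation, fell by 0.27 (adjusted p = 0.00726) and the pseudouridine synthase family member TRUB2 by 0.21 (adjusted p = 0.0196, edgeR). DDX28, TFB1M, MRM3 and MTERF4 were the other 4 called. After the length correction 7 of the 26 fell, where 9.61% of all tested genes fell, with C1QBP at −0.17 and TRUB2 at −0.38.

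Of 15 translation factor genes 3 (20.0%) fell and 0 rose, where 7.23% of all tested genes fell. The 3 were the ribosome recycling factor MRRF (log2 fold change −0.23, adjusted p = 0.0119), the translational activator of MT-CO1 TACO1 (−0.31, adjusted p = 0.0246) and the initiation factor MTIF3 (−0.44, adjusted p = 0.0368, edgeR). After the length correction MTIF3 stood at −0.27 and was not called (adjusted p = 0.0940, edgeR). MRRF had the opposite sign in the deposited FPKM, at 0.09 on the log2(FPKM + 1) scale. The elongation factor TUFM, the most abundant of the 15 at 326 CPM in I/R+DMSO, stood at −0.08 (adjusted p = 0.318, edgeR).

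The RNAs that this ribosome translates were measured as well. Of 13 mitochondrially encoded messenger RNAs 10 (76.9%) fell and 0 rose, where 7.23% of all tested genes fell. Their median log2 fold change was −0.25. They are short and very abundant, with medians of 936 bases and 6352 CPM. MT-CO3 fell by 0.35 (adjusted p = 5.0e-04), MT-ATP6 by 0.30 (adjusted p = 0.00159) and MT-CYB by 0.36 (adjusted p = 0.00164, edgeR). Together the mitochondrially encoded transcripts took 10.6% to 11.1% of counts under DMSO and 9.02% to 9.62% under Rk2. After the length correction 3 of the 13 (23.1%) fell, where 9.61% of all tested genes fell, and 9 of the 13 were below 0. MT-CO3 then stood at −0.19 and MT-CYB at −0.26, and MT-ATP6 at −0.13 was not called (adjusted p = 0.125, edgeR). The ribosomal RNAs MT-RNR1 and MT-RNR2 were not analysed here.

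Genes for mitochondrial DNA transcription and its nuclear regulators held 3 of 16 called lower (18.8%), where 7.23% of all tested genes fell. In the same list 2 were called higher (12.5%), close to the 11.0% of all tested genes that rose. The polymerase POLRMT fell by 0.26 (adjusted p = 0.0138), the RNA-binding protein SLIRP by 0.28 (adjusted p = 0.0380) and the transcription factor TFB2M by 0.19 (adjusted p = 0.0413, edgeR). LRPPRC, the partner of SLIRP in stabilising mitochondrial messenger RNA, had 214 CPM under DMSO and 260 CPM under Rk2 on average (log2 fold change 0.28, adjusted p = 0.00520, edgeR). Among long genes such as this one fold changes were higher in general, and LRPPRC stood at 0.11 after the length correction (adjusted p = 0.0484) and at 0.07 with GC (adjusted p = 0.199, edgeR). The coactivator PPARGC1A rose from 1.33 to 3.02 CPM, at a log2 fold change of 1.18 (SE 0.300, adjusted p = 0.0299, edgeR). It had only 13 to 74 counts in a library and stayed called in 3 of the 8 fits that left out a library. At 0.99 after the length correction it was not called (adjusted p = 0.0697, edgeR). SLIRP was not called either after that correction, at −0.05 (adjusted p = 0.478, edgeR). Of 14 chaperones and proteases of the mitochondrial stress response 3 (21.4%) fell, where 7.23% of all tested genes fell. In that list 1 (7.14%) rose, below the 11.0% of all tested genes that rose. The transcription factor ATF5, the protease CLPP and the cochaperone GRPEL1 fell by 0.44, 0.32 and 0.19 (adjusted p = 0.00721, 0.0258 and 0.0376). The protease LONP1 rose by 0.23 (adjusted p = 0.00463, edgeR). After the length correction CLPP stood at −0.20 and was not called (adjusted p = 0.0934, edgeR).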

How the data were processed

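RNA-seq of 8 HuH7 libraries (4 I/R+DMSO, 4 I/R+Rk2) was examined. Libraries were made from total RNA with an MGIEasy kit and sequenced on a BGISEQ-500 instrument. The submitters' processing notes name FastQC 0.11.5, HISAT2 2.2.1, StringTie 1.3.3 and the build hg38. The counting tool, annotation and strand setting are not given in the sources used here. The deposited tables hold raw read counts per gene and FPKM values, both made by the authors. The FPKM served for levels per length and an alternative test.

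Counts were TMM-scaled and fitted with edgeR 4.0.16 (robust quasi-likelihood, a minimum of 10 counts in 4 or more libraries, Benjamini-Hochberg over all 12928 genes tested, called at adjusted p under 0.05), in R 4.3.3. Gene length was estimated from the ratio of counts to FPKM. The length correction removed, in each library, a loess curve (span 0.5) of log2 deviation against length, through offsets. Members' overlaps, coordinates and GC came from GENCODE v29 (GRCh38). Total counts were 16374082 to 30310479, and a member had 119 to 8801 counts in a library, so counting error is part of the spread between libraries, more so for members with few counts. Alternatives were DESeq2 1.42.0, other scalings and filters, limma 3.58.1 on log2(FPKM + 1), GC correction, a replicate block and leaving out each library. The pipeline was tested on simulated data. Subunit and origin followed textbook assignment. Members and lists were chosen with earlier results of these data known. Genes were named by p (up to 8 called per subunit and direction, up to 5 after length correction), by the 3 highest and 3 lowest FPKM per subunit and, in other lists, up to 3 called per direction. The remaining called genes, the uncalled genes without overlap, those above 0 and those with a wide spread complete counts and were named after their values were seen.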

Additional observations from a re-analysis of the deposited data

Results flagged for a closer look

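Within each group of 4 libraries, the highest and lowest values were compared with the nearest of the others by Dixon's criterion, over 106 groups. It marked 11 values, where chance marks about 1 group in 20, and 9 of the 11 came from I/R+DMSO 1. The share of counts on mitoribosomal genes was 0.597% there against 0.4995% to 0.516% in the other I/R+DMSO libraries. In the same library MRPL12 stood at 147 CPM (others 124 to 125), MRPL21 at 146 CPM (102 to 105), MRPS26 at 102 CPM (80.9 to 84.5), MRPS12 at 121 CPM (93.9 to 96.6), MRPS15 at 118 CPM (98.0 to 100) and MRPS18A at 46.3 CPM (38.1 to 38.7). AURKAIP1 stood at 117 CPM (90.5 to 93.2) and SLIRP at 53.9 CPM (43.9 to 44.9). The 2 others were MRPL53 at 16.7 CPM in I/R+Rk2 2 (10.3 to 10.8 in the other I/R+Rk2 libraries) and ATF5 at 41.0 CPM in I/R+Rk2 3 (48.7 to 49.5). The log2 deviation of I/R+DMSO 1 fell with gene length (Spearman rho −0.50 over all tested genes). Without this library 19 members were called lower, where 6.90% of all tested genes were.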

How the results depend on the processing

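The direction of the mitoribosomal genes held in every setting run: between 60 and 75 of the 78 were below 0 and 0 were called higher. The number called lower is given here with the share of all tested genes called lower in brackets. It was 23 as reported (7.23%), 34 with DESeq2 (10.0%) and 30 with upper-quartile scaling (10.1%). It was 26 with at least 50 counts in every library (9.52%), 14 with library size alone (5.29%) and 15 with no filter on low counts (4.97%). It was 16 after the length correction (9.61%) and 14 after length and GC correction (9.09%). It was 4 in limma on log2(FPKM + 1) (2.62%), 4 with a pseudocount of 0.1 (2.60%) and 2 with no filter on FPKM (1.68%). It was 0 with a fold above 1.5 (0.580%). Leaving out a library gave 6 to 20 (3.35% to 6.90%). Medians were then −0.25 to −0.15 for the large and −0.22 to −0.14 for the small subunit. The length correction without I/R+DMSO 1, added after seeing the data, gave 9 lower (8.36% of all tested genes) and a small-subunit median of −0.07. The cause of these changes was not tested. Same-numbered libraries of the groups did not deviate together (correlations −0.009 to 0.085), and not every library correlated best with its own number. With the replicate number as a block 18 members were called lower, where 5.20% of all tested genes were (1814 genes called in all, against 2351). With the block and the length correction together it was 7, where 6.30% of all tested genes were called lower. The block alone changed none of the signs listed next.

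Some named genes with log2 fold changes near 0 changed sign. PTCD3 stood at −0.01 with upper-quartile scaling and without I/R+DMSO 1, at −0.08 after length correction with or without the block, at −0.12 with GC and at −0.09 after length correction without I/R+DMSO 1. MRPL51 stood at 0.15 in the 3 FPKM fits, 0.10 after length correction, 0.11 with GC added or with the block added to that correction, 0.07 without I/R+DMSO 1 and 0.16 after length correction without it. MRPS15 stood at 0.04 after length correction with or without the block, and at 0.07 with GC and after length correction without I/R+DMSO 1. CHCHD1 stood at 0.01 after length correction with or without the block, and at 0.02 after length correction without I/R+DMSO 1. In the FPKM fits MRPL19 stood at 0.02, and MRRF at 0.09, 0.10 with the smaller pseudocount and 0.09 with no filter. Leaving out a library in turn moved MRPL51 between −0.16 and 0.07, MRPL19 between −0.30 and 0.04 (without I/R+Rk2 4), MRPS35 between −0.05 (without I/R+DMSO 4) and 0.19, MRPS14 between −0.04 (without I/R+DMSO 4) and 0.34, and PTCD3 between −0.01 and 0.04. MRPL43 turned to −0.09 without I/R+DMSO 1, and MRPL42 and MRPL49 to −0.07 and −0.01 in the FPKM fits. MRPL21 stood at 0.01 after length correction without I/R+DMSO 1. With 4 libraries a group and decreases under 1.5-fold, these data do not resolve most members one by one.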
